A study of Mus musculus with 6 samples.

Results

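The respiratory chain genes examined here are the subunit genes of complexes I to V and of cytochrome c, taken by gene symbol from tumour-derived mouse cell lines. The symbols picked out 105 of the 55401 genes in the tables, of which 7 are named as pseudogenes. The other 98 comprise 85 genes of the nuclear genome (36 for complex I, 4 for complex II, 9 for complex III, 1 for cytochrome c, 19 for complex IV and 16 for complex V) and 13 genes of the mitochondrial genome (7 for complex I, 1 for complex III, 3 for complex IV and 2 for complex V). Ndufa4 is counted with complex IV, where its product is known to sit, although its symbol follows complex I. The rule for membership works on gene names.

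The respiratory chain passes electrons from NADH (complex I) and succinate (complex II) through complex III and cytochrome c to oxygen (complex IV), and the proton gradient that this builds drives ATP synthase (complex V). Complexes I, III, IV and V are built from products of both genomes. Their nuclear subunits are made in the cytosol and imported, and their mitochondrial subunits are made from polycistronic transcripts of a circular genome that encodes no complex II subunit and no cytochrome c. In mouse tissues several nuclear subunits of complex IV also have a second form made in muscle, in testis or at low oxygen.

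RNA was sequenced from 6 cell lines set up from primary tumours of C57BL/6 mice, 3 labelled WT (numbers 2, 4 and 6) and 3 labelled Rag1KO (numbers 1, 3 and 7). Rag1 encodes part of the recombinase that lymphocytes need to assemble antigen receptors. All 6 were made by cutting up and enzymatically digesting a tumour and growing the cells out in serum, so all were measured as cultured cells away from the host, and the tumour type, the sex and the animal behind each line are not given in the sources used here. With 1 library a line, p-values set the difference between labels against the spread among the 3 lines within each label. Rag1 had 0 reads in all 3 lines labelled WT, and 41, 109 and 183 reads in Rag1KO 1, 3 and 7, which goes against a plain reading of the labels. Totals for a whole gene leave unseen whether the deleted stretch was covered, so every direction below is given for lines as labelled.

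The libraries held 55409583 to 62998051 assigned reads. Values are normalized counts, meaning reads divided by a single size factor for each library, and 3 reads correspond to 2.64 to 3.48 normalized counts. The summed level of 7 mesenchymal markers (all 7 passed the filter, led by Col1a1) was 303239 in WT 6 against 1107150 to 2037470 in the other 5. WT 6 was also lowest in the sums for leukocytes and macrophages, endothelium, epithelium, melanocytes and muscle, but not for lymphocytes. Endothelial markers, led by Kdr, summed to 20.2 there and to 69.5 to 240 elsewhere. Melanocyte markers, led by Mitf and with Dct at 0 in all lines, summed to 639 there and to 674 to 2254 elsewhere. Sex-linked genes differed between the labels. Xist was at 59775 normalized counts in WT 2 and 32733 in WT 4, at 5.28 in WT 6 and at 15.3, 3.48 and 1.94 in Rag1KO 1, 3 and 7, and the Y-linked Ddx3y was at 4345 in WT 6, 2156 to 5332 in the lines labelled Rag1KO and at most 2.01 in WT 2 and WT 4. The part of sex in the differences between labels was not tested. Without WT 6, the remaining lines labelled WT have Xist and those labelled Rag1KO have Ddx3y. In every value given without WT 6, label and sex therefore cannot be told apart. Lymphocyte markers summed to at most 4.83 normalized counts in any line, with Cd3e, Cd3g, Cd8a and Ms4a1 at 0 throughout. Markers of leukocytes and macrophages, led by Lyz2, summed to 618, 902 and 258 in WT 2, 4 and 6 and to 2092, 1287 and 445 in Rag1KO 1, 3 and 7, with 4 of the 8 passing the filter and Tyrobp at 0 in all lines. Of 6 epithelial markers Epcam was at 0 in all lines, and the sum, led by Cdh1, was 347 in WT 4 and 9.68 to 57.4 in the others. The expression of these 98 genes was then compared between the labelled groups, between complexes and between the genomes.

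Nuclear respiratory chain genes are known for promoters that carry sites for NRF1, for ETS factors such as GABP, and for YY1. Of the 85 nuclear members, 68 matched a RefSeq promoter window (GRCm38.p6, 250 bases before to 50 bases after the start), giving 73 windows. On either strand, the palindromic NRF1 motif occurred in 6.85% of the members' windows and in 0.971% of all 32851 windows, and its core with any base in the fifth place, which includes the palindrome, in 24.7% and 4.603%. The ETS letters CCGGAAGT occurred in 6.85% against 3.89%, and the YY1 letters AAGATGGC in 12.3% against 2.75%. A match describes the letters in a window and is not evidence of binding. The stretches below, chosen after their values were seen, precede genes whose levels differed in kind across the lines: Cox6a1, whose labelled groups did not overlap, Uqcr11, which varied most among complex III genes, and Sdha, the catalytic subunit of complex II, which varied little. Each is read on the gene's own strand and ends where the annotated gene model begins, with the matched letters in capitals.
Cox6a1: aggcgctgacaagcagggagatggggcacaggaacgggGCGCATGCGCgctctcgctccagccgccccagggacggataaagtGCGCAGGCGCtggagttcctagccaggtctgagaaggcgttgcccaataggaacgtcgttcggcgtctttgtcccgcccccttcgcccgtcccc
Uqcr11: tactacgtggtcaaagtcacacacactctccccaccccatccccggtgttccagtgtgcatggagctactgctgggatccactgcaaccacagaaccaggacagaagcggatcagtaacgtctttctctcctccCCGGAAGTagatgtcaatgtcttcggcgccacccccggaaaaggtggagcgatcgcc
Sdha: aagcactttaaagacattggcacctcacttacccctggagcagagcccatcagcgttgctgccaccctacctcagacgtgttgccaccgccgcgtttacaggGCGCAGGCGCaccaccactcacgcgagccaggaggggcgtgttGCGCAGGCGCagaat
The Cox6a1 stretch (chr5:115348982-115349158, minus strand) holds matches to the NRF1 core that begin 162 and 117 bases before the RefSeq start. The farther is the full palindrome, and the nearer matches the core on the opposite strand from the one printed. The Uqcr11 stretch (chr10:80406831-80407021, minus strand) holds the ETS letters 66 bases before the start. The Sdha stretch (chr13:74350281-74350440, minus strand) holds the NRF1 core 98 and 55 bases before the start, both on the opposite strand from the one printed.

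Of the 98 genes, 93 passed the filter on low counts, 80 nuclear and all 13 mitochondrial. The 5 that did not are second forms of complex IV subunits. Cox8c was at 0 in all 6 lines, Cox4i2, Cox7b2 and Cox8b stayed at or below 3.83, 1.16 and 2.90 normalized counts, and Cox6b2, a testis form, was at 24.3 in Rag1KO 3, 19.4 in Rag1KO 7 and at most 0.966 elsewhere. In the levels that follow, 3 of the 7 pseudogenes also passed and all 3 derive from Atp5l: Atp5l-ps1 ran from 809 to 1185 normalized counts, and reads of such copies and of Atp5l itself cannot be told apart here.

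**Figure D1:**
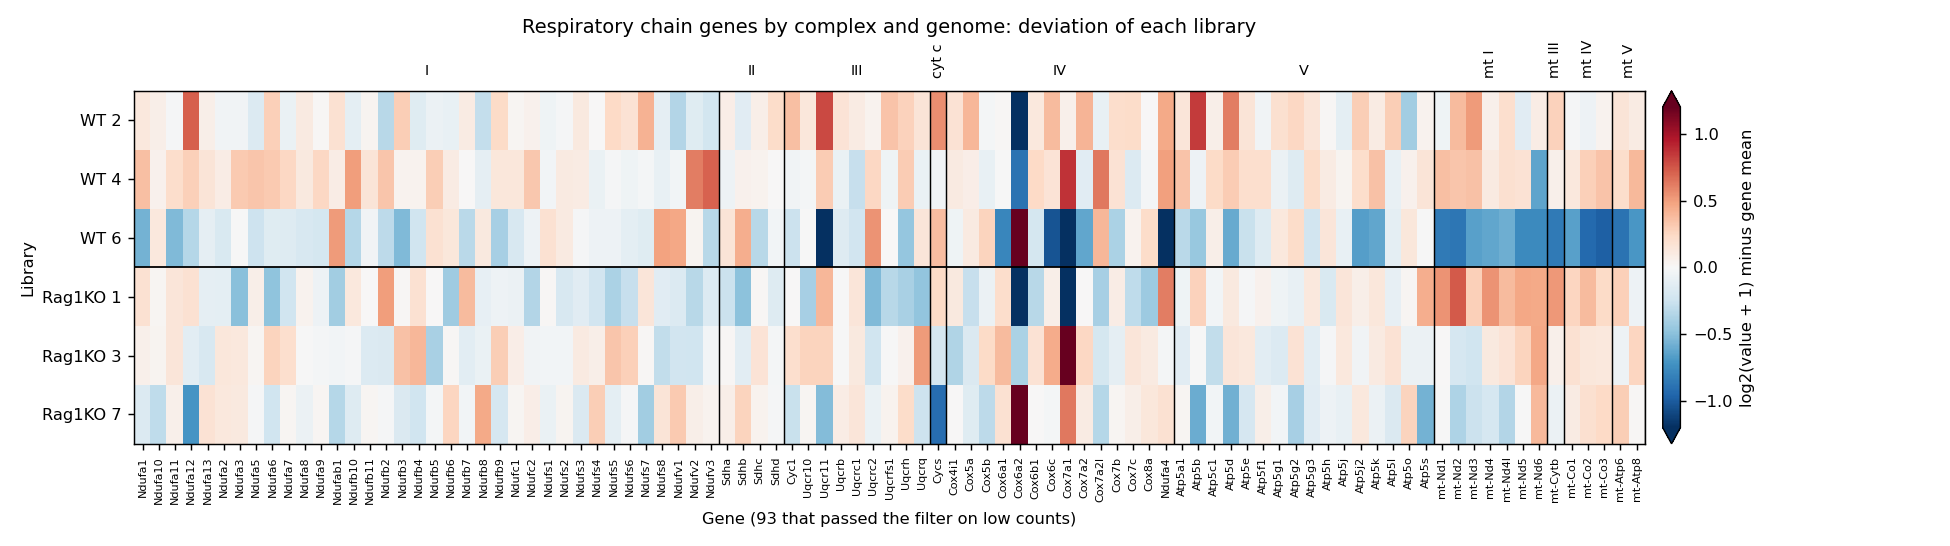
Each column is 1 of the 93 respiratory chain genes that passed the filter, ordered by complex with the mitochondrially encoded genes (mt) at the right, and each row is a line; colour is log2(normalized count + 1) minus the gene's mean over the 6 lines, cut at 1.2 in each direction. The mitochondrial block is below its mean in WT 6 in every gene, and the columns of Cox6a2, Cox7a1, Ndufa4 and Uqcr11 have the widest ranges among the nuclear genes.

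No respiratory chain gene differed between the labelled groups after adjustment (limma on log2(normalized count + 1), lowest adjusted p = 0.850 among the 93), where 0.0062% of all 16137 tested genes did. At an unadjusted limma p under 0.05 there were 4 of 93 members (4.30%), namely Cox7a2l, Uqcrc2, Ndufab1 and mt-Nd6, against 4.67% of all genes, a share near the background, and without WT 6 there were 0 of 93, against 4.12% of all genes. edgeR's quasi-likelihood test and limma-voom likewise called 0 members with 3 unadjusted, and DESeq2 called 0 members with a lowest adjusted p of 0.567. The 3 values of each label did not overlap for 7 members higher in the lines labelled WT (7.53%, against 6.49% of all genes), namely Ndufa10, Ndufab1, Uqcrc2, Cox5a, Cox7a2l, Atp5c1 and Atp5h. They did not overlap either for 3 members that were lower there (3.23%, against 5.6%), namely Uqcrc1, Cox6a1 and mt-Nd6. The median 95% interval reached 0.54 log2 units to either side for the nuclear members and 0.88 for the mitochondrial ones, which is the precision of a single gene's difference with 3 lines a label.

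The fold changes below are log2 differences, WT minus Rag1KO as labelled, on the log2(normalized count + 1) scale. Their median was 0.08 over the 80 nuclear genes, of which 54 were positive, and -0.35 over the 13 mitochondrial genes, of which 1 was positive, beside 0.000303 over all tested genes, of which 50.02% were positive. Without WT 6, 63 of the 80 nuclear and 5 of the 13 mitochondrial values were positive. The medians were then 0.15 and -0.01, and 51.5% of all genes were positive. That comparison sets lines with Xist against lines with Ddx3y, so label and sex cannot be told apart in it. By complex, the nuclear medians were 0.06 for complex I (24 of 36 positive), 0.12 for II (3 of 4), 0.07 for III (6 of 9), 0.08 for IV (8 of 14) and 0.10 for V (12 of 16). The mitochondrial medians were -0.31 for complex I, -0.34 for mt-Cytb, -0.40 for IV and -0.24 for V. Without WT 6 the nuclear medians were 0.13, 0.07, 0.18, 0.12 and 0.17 for complexes I to V, and the mitochondrial ones were -0.03 for complex I, -0.0024 for mt-Cytb, -0.12 for IV and 0.09 for V. Genes of a complex share lines and are not replicates, so these counts are a description.

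**Figure D2:**
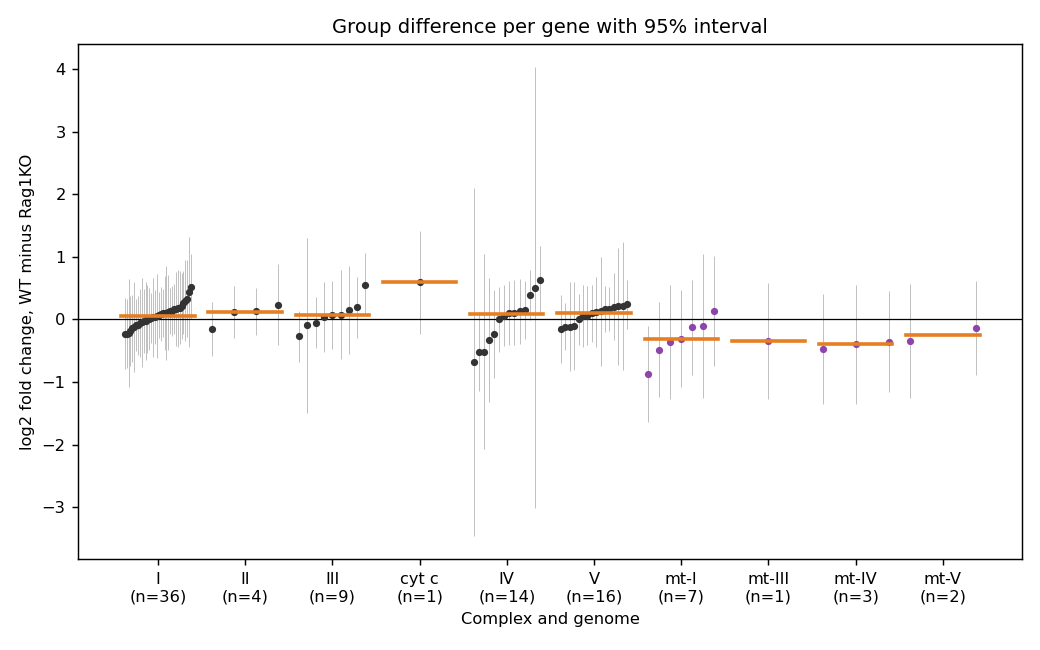
Points are the log2 fold change (WT minus Rag1KO as labelled) of each of the 93 genes with its 95% limma interval, grouped by complex and genome, and orange bars are group medians. Nuclear medians for complexes I to V lie between 0.06 and 0.12 and mitochondrial medians between -0.40 and -0.24, and all but 4 of the intervals cross 0.

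Complex I takes electrons from NADH and is the largest of the assemblies. Its 7 nuclear core subunits, which carry the flavin and the iron-sulfur clusters, had a median fold change of 0.14 and were all positive, but 4 of 7 without WT 6, and the 29 supernumerary subunits had a median of 0.02 with 17 positive. Per kilobase of transcript, Ndufa7 was highest at a mean level of 6106 ± 837 (SD, n = 6 lines) and Ndufb2 lowest at 130 ± 32.9. Ndufs1, the largest core subunit, was the steadiest of the 80 nuclear genes, with a highest line 1.198 times its lowest.

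Ndufab1, the mitochondrial acyl carrier protein that is part of complex I (chromosome 7, 122085403 to 122101886), stood at 1871, 1750 and 2339 normalized counts in WT 2, 4 and 6, and at 1232, 1611 and 1295 in Rag1KO 1, 3 and 7. Every line labelled WT was above every line labelled Rag1KO, by 0.52 ± 0.21 log2 units (SE; limma unadjusted p = 0.046, adjusted p = 0.850). Ndufa10, an accessory subunit, also did not overlap, by a narrow margin, at 4265, 4203 and 4439 against 4133, 4142 and 3277 (0.17 ± 0.16). Ndufb5, an accessory membrane subunit, was at 1718, 2226 and 2047 against 1817, 1378 and 1784 (0.27 ± 0.20). Ndufv2, a core subunit with an iron-sulfur cluster, was at 2696, 4544 and 3035 against 2367, 2524 and 3124 (0.33 ± 0.25), with WT 4 standing above the rest. Ndufa12 was at 5429, 4024 and 2602 against 3738, 3018 and 2023 (0.44 ± 0.36). The groups overlapped for these last 3 genes.

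Complex II, succinate dehydrogenase, is wholly nuclear and also works in the citric acid cycle. Sdha, its flavoprotein, was at 12692, 11524 and 13343 in the lines labelled WT and at 10054, 12096 and 12563 in those labelled Rag1KO (0.12 ± 0.17). Sdhb, the iron-sulfur subunit, ranged more widely, at 2598, 2946 and 3854 against 2024, 2613 and 3430 (0.23 ± 0.27). The membrane anchors Sdhc and Sdhd differed by -0.15 ± 0.18 and 0.13 ± 0.15. All 4 overlapped between the labels, and per kilobase Sdha was highest (4154 ± 397) and Sdhc lowest (2026 ± 223, SD, n = 6 lines).

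Complex III passes electrons to cytochrome c. Its core proteins stood in opposite order in the labelled groups: Uqcrc2 (chromosome 7, 120635176 to 120659524) was at 4812, 5548 and 6757 in the lines labelled WT and at 3235, 3958 and 4421 in those labelled Rag1KO, and Uqcrc1 was at 8498, 6548 and 6764 against 8779, 8571 and 8763. Neither overlapped between labels. Uqcrc2 was higher in the lines labelled WT by 0.56 ± 0.21 log2 units (limma unadjusted p = 0.036, adjusted p = 0.850), while the Uqcrc1 difference was -0.27 ± 0.16. Uqcrfs1, the Rieske iron-sulfur protein, and Uqcrq, a small subunit, differed by 0.20 ± 0.20 and 0.15 ± 0.29. Uqcr11, whose upstream stretch is shown above, was at 1411 in WT 6, 2331 in Rag1KO 7 and 4036 to 5807 in the other 4 lines, and per kilobase it was the highest complex III gene (8286 ± 3532) with Uqcrfs1 the lowest (1949 ± 293, SD, n = 6 lines).

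Cycs, the somatic cytochrome c, was at 7341, 4858 and 6475 in the lines labelled WT and at 5870, 4315 and 2659 in those labelled Rag1KO (0.59 ± 0.34, limma unadjusted p = 0.128). The groups overlapped, and Rag1KO 7 was the low value. Cyct, the testis form, was at 0 in all 6 lines.

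Complex IV, cytochrome c oxidase, showed the widest differences between lines. Cox7a2l is counted here with complex IV (chromosome 17, 83501918 to 83517330). It was at 8682, 14284 and 12189 in the lines labelled WT and at 7007, 7967 and 7295 in those labelled Rag1KO. The labels did not overlap, and the difference of 0.63 ± 0.22 was the highest among nuclear members (95% interval 0.08 to 1.18, limma unadjusted p = 0.031, adjusted p = 0.850). Cox5a, a structural subunit, also did not overlap, at 4317, 3466 and 3525 against 2706, 2893 and 2960 (0.40 ± 0.16). Cox6a1 (chromosome 5, 115345642 to 115348981) stood the other way, at 6188, 6108 and 3569 against 7092, 8001 and 6989 (-0.52 ± 0.26, or -0.26 without WT 6). Cox7a2 was at 4070, 2792 and 1990 against 3082, 3660 and 3288, with the labels overlapping.

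Among exchangeable forms of complex IV subunits, Ndufa4 and a paralogue of it separated WT 6 from the other lines. Ndufa4 (chromosome 6, 11900292 to 11907497) was at 1454 normalized counts in WT 6 and at 4751 to 7362 in the other 5, and its ratio to Cox4i1 was 0.118 there against 0.429 to 0.533. Its paralogue AA467197 (chromosome 2, 122636986 to 122641191), known to take the place of Ndufa4 in the enzyme, was at 1546 in WT 6 and at 0 to 5.79 in the others. It was added to the comparison after its values were seen, and it did not pass the filter. Per kilobase, Ndufa4 and AA467197 were at 3160 and 2004 in WT 6, whereas in each other line Ndufa4 was at least 10327 and AA467197 at most 7.51.

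The muscle form Cox6a2 was also highest in WT 6, at 913 normalized counts, next in Rag1KO 7 at 279, and at 29.7 to 79.95 in the other 4. It made up 17.7% of the Cox6a1 and Cox6a2 pair per kilobase in WT 6, 3.24% in Rag1KO 7 and 0.350% to 0.832% elsewhere. Of 6 muscle markers 2 passed the filter and Ckm and Myh6 were at 0 throughout, and the sum of the 6 was lowest in WT 6 (7.92 normalized counts) and highest in Rag1KO 3 (4267). The other muscle form, Cox7a1, was by contrast lowest in WT 6 at 1.76, under the 3-read level, and highest in Rag1KO 3 at 37.1. The low-oxygen paralogue Ndufa4l2 was at 479 in Rag1KO 3, 123 in WT 4 and 6.71 to 22.0 in the others. Per kilobase, Cox4i1 was the highest complex IV gene (16958 ± 2122) and Cox7a1 the lowest tested (32.5 ± 29.6, SD, n = 6 lines).

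**Figure D3:**
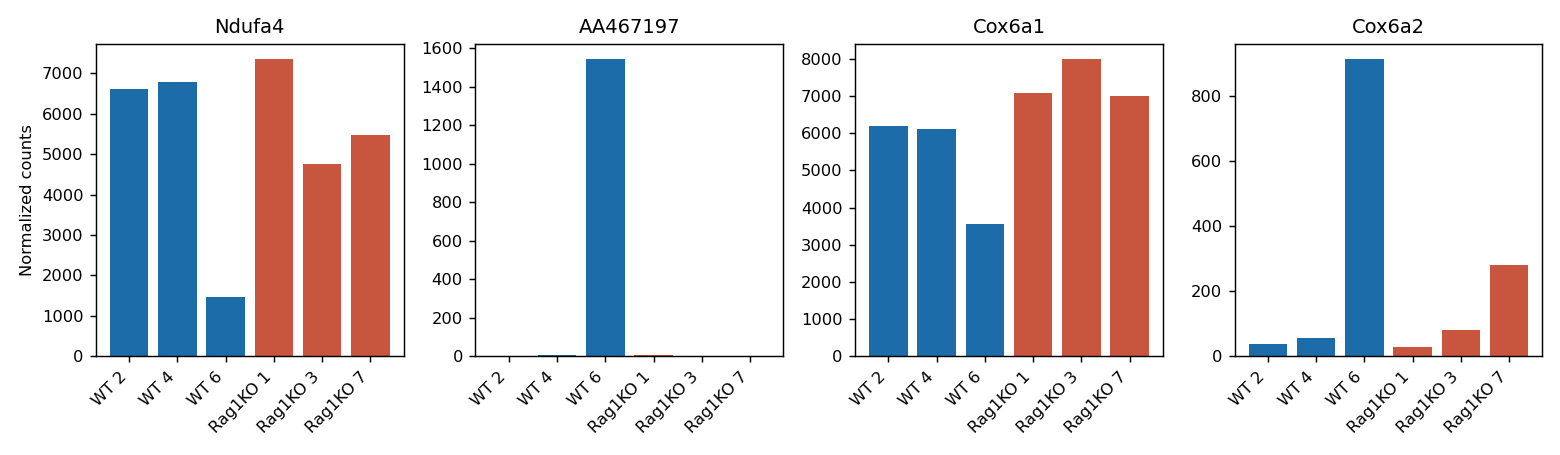
Bars are normalized counts in each of the 6 lines (blue, labelled WT; red, labelled Rag1KO) for Ndufa4, its paralogue AA467197, Cox6a1 and its muscle form Cox6a2, each on its own linear axis from 0. WT 6 has the lowest Ndufa4 (1454) and Cox6a1 (3569) and the highest AA467197 (1546) and Cox6a2 (913).

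Complex V, ATP synthase, had the most abundant nuclear member. Atp5b, the catalytic beta subunit, was at 122807, 65802 and 50070 in the lines labelled WT and at 83128, 68591 and 45506 in those labelled Rag1KO, which is 12.7% to 25.7% of all nuclear member counts. Per kilobase it was the highest complex V gene at 37918 ± 14643, and Atp5s, a coupling-factor gene, the lowest at 181 ± 39.5 (SD, n = 6 lines). Atp5c1, the gamma subunit of the rotor, did not overlap between labels at 9553, 10669 and 9542 against 8897, 7428 and 8923 (0.24 ± 0.16), and neither did Atp5h, a stator subunit, at 5276, 5605 and 5765 against 4608, 5186 and 4999 (0.17 ± 0.14). Atp5g1, Atp5g2 and Atp5g3 encode the same mature c subunit, and their shares per kilobase were similar in all lines: 5.42% to 7.36% for Atp5g1, 50.01% to 62.4% for Atp5g2 and 31.1% to 44.0% for Atp5g3. These shares depend on the transcript lengths used, 2675.5, 586 and 718.5 bases in the same order. With exon-union lengths instead, the mean levels per kilobase were 942, 5450 and 3460. In fold change Atp5g1 and Atp5g2 stood at 0.17 ± 0.15 and 0.20 ± 0.22.

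The 13 mitochondrial genes varied more between lines than the nuclear ones, and mainly through WT 6. The highest line exceeded the lowest by a median factor of 2.35 for mitochondrial genes, 1.60 for nuclear members and 2.38 for all tested genes. All 13 were lowest in WT 6, at 0.431 to 0.603 of the median of the other 5 lines, and 8 of 13 were highest in Rag1KO 1. By contrast 30 of the 80 nuclear members and 4915 of all 16137 genes were lowest in WT 6. Among the nuclear members these were 13 of 29 supernumerary and 0 of 7 core complex I genes, 1 of 4 in complex II, 3 of 9 in complex III, 6 of 14 in complex IV and 7 of 16 in complex V. They were mostly genes with short transcripts: 25 of the 51 nuclear members under 1000 bases were lowest in WT 6, where their median deviation was -0.19 and that of all 1013 tested genes of this length was -0.04. As a share of all reads, the mitochondrial members took 0.905% in WT 6, 1.43% in WT 2, 1.73% in WT 4, and 1.995%, 1.43% and 1.63% in Rag1KO 1, 3 and 7, while nuclear members took 0.609% to 0.754% of reads in every line. The mesenchymal markers were also lowest in WT 6, but their sum in Rag1KO 1 (1107150) was the lowest of the other 5 lines. The leukocyte and macrophage markers were lowest in WT 6 (258) and highest in Rag1KO 1 (2092). Between these extremes their order differed from that of the mitochondrial share, with 445 in Rag1KO 7 and 618 in WT 2. The part of these cell types was not tested. In bulk RNA, fewer cells of a kind and less RNA per cell cannot be told apart.

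Per kilobase the complex I genes of the mitochondrial genome ran from mt-Nd1 (68007 ± 20073, SD, n = 6 lines) through mt-Nd2, mt-Nd4, mt-Nd3, mt-Nd5 and mt-Nd4l down to mt-Nd6, a span of 75.8 times. mt-Nd6, the member encoded on the opposite strand from the other 12 (M, 13552 to 14070), was at 467, 283 and 259 normalized counts in the lines labelled WT and at 604, 607 and 574 in those labelled Rag1KO. The labels did not overlap, and the difference was -0.87 ± 0.31 (95% interval -1.64 to -0.11, limma unadjusted p = 0.032, adjusted p = 0.850). As a share of the other mt-Nd counts, mt-Nd6 was at 0.174%, 0.0945% and 0.173% against 0.164%, 0.231% and 0.251%, so relative to its neighbours the labels overlapped. Its 3′ end overlaps that of mt-Nd5, and strand use in the counting is not given in the sources used here, so reads of the opposite strand cannot be told apart from its own.

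The remaining mitochondrial genes overlapped between labels. mt-Nd5 was at 53664, 66624 and 34795 in the lines labelled WT and at 81655, 71136 and 58821 in those labelled Rag1KO (-0.49 ± 0.31). mt-Nd1, mt-Nd2, mt-Nd4 and mt-Nd4l differed by -0.36, -0.11, -0.31 and -0.12, and mt-Nd3 by 0.14, the single positive value. mt-Cytb, the complex III subunit, was at 114412, 98252 and 52344 against 135641, 98534 and 89624 (-0.34 ± 0.38). Without WT 6 the differences were -0.0024 for mt-Cytb, -0.03 for mt-Nd1, -0.07 for mt-Nd4 and -0.23 for mt-Nd5, and those of mt-Nd2 and mt-Nd4l were positive at 0.30 and 0.14.

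The mitochondrial genome encodes the catalytic core of complex IV. mt-Co1, which holds the oxygen-binding site, was at 222613, 245164 and 143130 against 267748, 255742 and 240213 (-0.36 ± 0.33). mt-Co2 and mt-Co3 differed by -0.47 ± 0.36 and -0.40 ± 0.39. Without WT 6 the differences were -0.12, -0.12 and -0.0056 for mt-Co1, mt-Co2 and mt-Co3. Per kilobase the mean of mt-Co1 was 1.21 times that of mt-Co2, and mt-Co1 was above mt-Co2 in all 6 lines, from 158682 against 143428 in WT 4 to 92640 against 61652 in WT 6. In complex V, mt-Atp6 and mt-Atp8 differed by -0.35 and -0.14, or by 0.0093 and 0.18 without WT 6, and per kilobase mt-Atp6 was 7.87 times mt-Atp8, whose short gene overlaps it.

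The sum of mitochondrial members over the sum of nuclear members was 1.90, 2.357 and 1.41 in WT 2, 4 and 6, and 2.86, 2.356 and 2.53 in Rag1KO 1, 3 and 7. The means were 1.89 ± 0.472 and 2.58 ± 0.258 (SD, n = 3), and the labels overlapped, narrowly, at WT 4 and Rag1KO 3. The difference of log2 ratios was -0.48, or -0.28 without WT 6. Within complexes, the ratio of the per-kilobase sums was lowest in WT 6 in each of I, III, IV and V, at 1.62, 1.25, 2.56 and 0.791. It was highest in Rag1KO 1 for complexes I, III and IV, at 3.83, 2.96 and 4.80, and in Rag1KO 7 for complex V, at 1.76. In all 6 lines this ratio was highest for complex IV and lowest for complex V. The sums run over different numbers of genes in each complex and genome, so this order is not one of levels per gene.

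**Figure D4:**
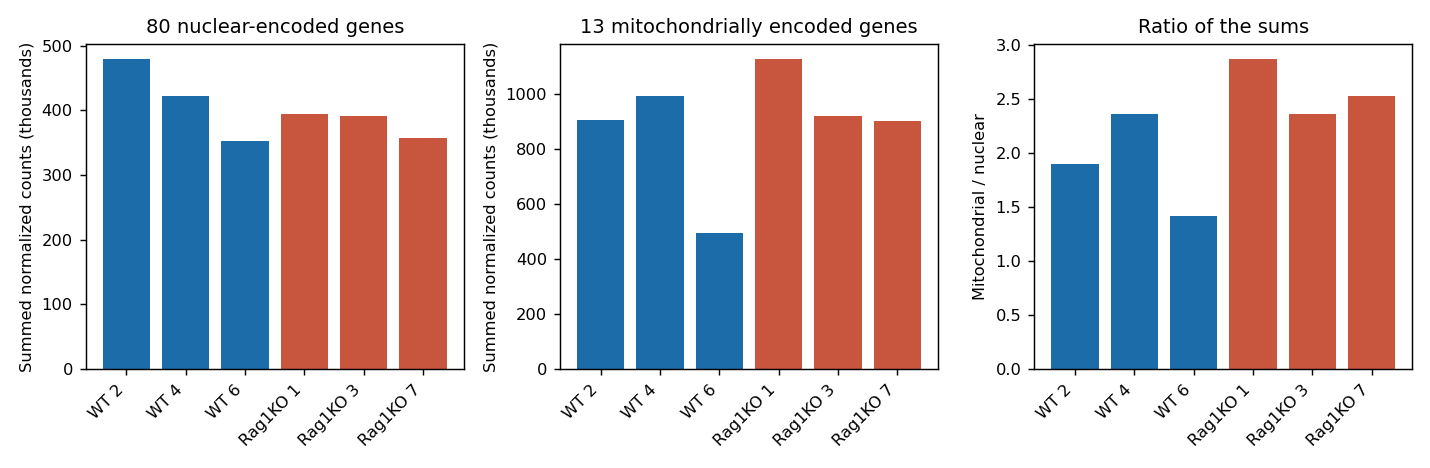
Bars give, for each of the 6 lines (blue, labelled WT; red, labelled Rag1KO), the summed normalized counts of the 80 nuclear members, those of the 13 mitochondrial members, and the ratio of these sums. WT 6 has the lowest ratio (1.41) and Rag1KO 1 the highest (2.86), and WT 4 and Rag1KO 3 are level at 2.36.

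Nuclear members on the same chromosome often deviated together in a line, and with the other genes of that chromosome. All 5 members on chromosome 10 (Ndufa12, Ndufs7, Uqcr11, Atp5b and Atp5d) were highest in WT 2, at a median of 0.72 log2 units above their means, where the 781 other tested genes of the chromosome stood at 0.54. The same 5 were lowest in WT 6 or Rag1KO 7, with the other genes at -0.48 and -0.43. All 6 on chromosome 17 (Ndufa11, Ndufa7, Ndufb10, Ndufv2, Ndufv3 and Cox7a2l) were highest in WT 4, at 0.56 against 0.25 for the other 789. On chromosome 7, which holds both Ndufab1 and Uqcrc2, 6 of 7 members were lowest in Rag1KO 1, at a median of -0.51 against -0.32 for the other 1174 genes.

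The 4 members on chromosome 19 (Ndufb8, Ndufs8, Ndufv1 and Cox8a) were all above their means in WT 6 and in Rag1KO 7, at medians of 0.34 and 0.24 with the other genes at 0.29 and 0.25. Over the 80 nuclear members, the deviation of a gene and the median deviation of its chromosome's other genes had a Pearson r of 0.66, 0.57 and 0.36 in WT 2, 4 and 6 and 0.71, 0.36 and 0.62 in Rag1KO 1, 3 and 7. These are descriptions across genes that share a library. They had the same sign in 328 of 480 values, and subtracting the chromosome median lowered the mean absolute deviation from 0.226 to 0.182. After this centring the Ndufab1 and Uqcrc2 differences were 0.41 and 0.45, Cox7a2l was 0.65, and 0 members passed the adjusted limma test. What lies behind these chromosome-wide shifts was not tested.

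**Figure D5:**
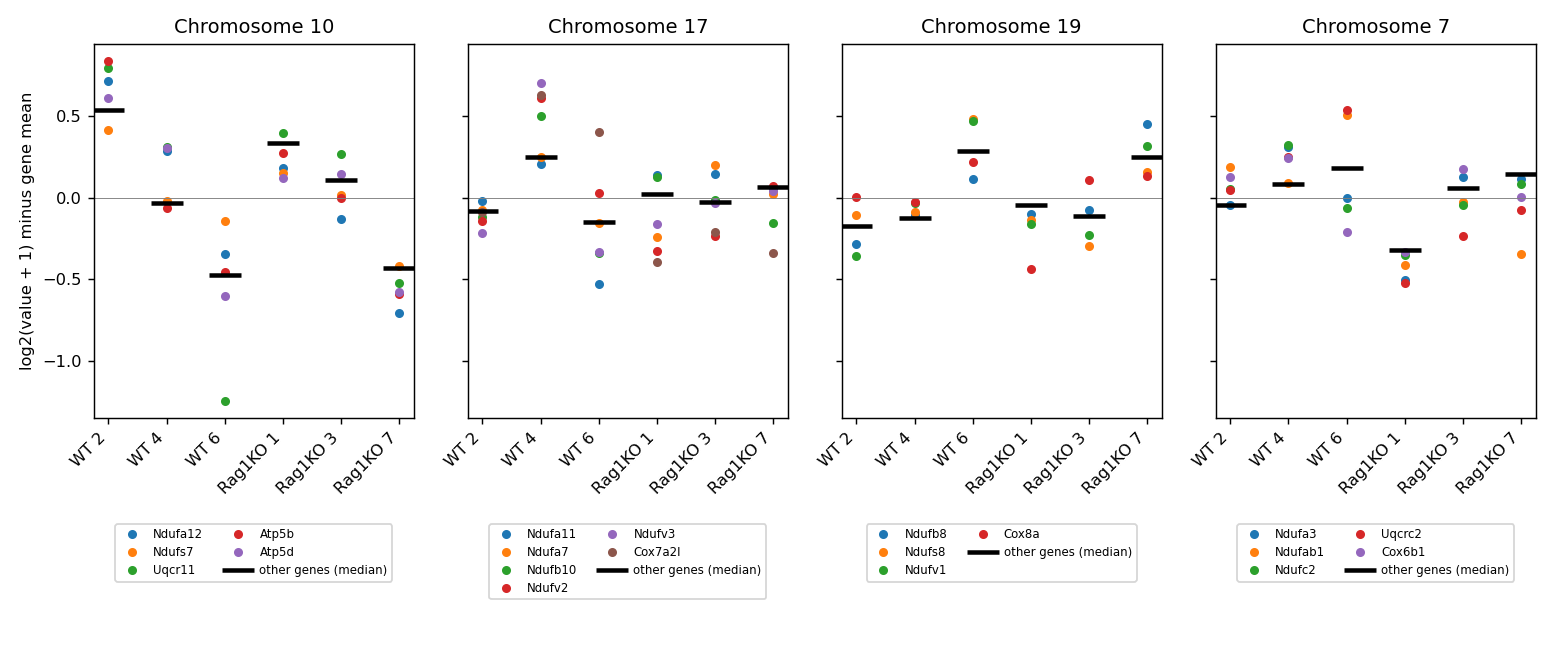
Points are nuclear respiratory chain genes on chromosomes 10, 17, 19 and 7, plotted for each line as log2(normalized count + 1) minus the gene's mean, and black bars are the median of the other tested genes of that chromosome (Cox6a2 and Cox7a1 on chromosome 7 are left out because of their wide range). Chromosome 10 members peak in WT 2 (median 0.72) and chromosome 17 members in WT 4 (median 0.56), where the other genes of the same chromosome are above 0 too.

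Genes that build and serve the chain were examined as lists. Of 48 assembly factors 47 were tested and 0 passed the adjusted test (0 also at an unadjusted p under 0.05, against 4.67% of all genes). Of the 47, 30 were positive and 17 negative, with a median of 0.11. Over all tested genes 50.02% were positive and the median was 0.000303. The lowest p-values among them belonged to Ndufaf4, a complex I assembly factor (0.70 ± 0.37), Cox17, a copper chaperone for complex IV (-0.96 ± 0.60), and Bcs1l, which inserts the Rieske protein into complex III (0.43 ± 0.31). Without WT 6 these were 0.35, -1.55 and 0.17. Ndufaf4 was at 722, 568 and 1324 in the lines labelled WT and at 598, 435 and 491 in those labelled Rag1KO, and Bcs1l at 556, 770 and 1104 against 528, 569 and 649, so WT 6 was the highest line for both. Cox17 was at 47.3, 75.3 and 206 in the lines labelled WT and at 179, 193 and 159 in those labelled Rag1KO. Pet117 was at 0 in all lines. Of 12 nuclear regulators, 0 passed (0 also unadjusted, against 4.67% of all genes) and 6 were positive, where 50.02% of all genes were. Ppargc1b, a coactivator of mitochondrial genes, was at 27.2, 131 and 111 against 35.5, 23.2 and 13.6 (1.67 ± 0.76). Nfe2l2, an antioxidant regulator, was at 25281 in WT 6 and 5403 to 9720 elsewhere, and Nrf1 at 2828 in WT 6 and 1396 to 1898 elsewhere.

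Of 29 tested genes that maintain mitochondrial DNA or transcribe and stabilise its RNA, 0 passed the adjusted test. At an unadjusted p under 0.05 there was 1 (3.45%), against 4.67% of all genes. In this list 24 were positive and the median was 0.20, beside 50.02% positive and a median of 0.000303 over all tested genes. The median of the mitochondrial members themselves was -0.35, or -0.01 without WT 6. Lrpprc, which stabilises mitochondrial messenger RNA, was at 5184, 5944 and 6816 in the lines labelled WT and at 4215, 3214 and 3455 in those labelled Rag1KO (0.72 ± 0.19, limma unadjusted p = 0.00885, adjusted p = 0.850). It did not overlap between labels, and nor did Hsd17b10, an X-linked gene for a subunit of the mitochondrial RNase P (3346, 3686 and 3969 against 2923, 1905 and 3300), Tefm, Mterf1a or Mterf1b. These 5 of 29, all higher in the lines labelled WT, are 17.2% of the list, against 6.49% of all genes in that direction. In the other direction there were 0 of 29, against 5.6% of all genes. Of the 47 assembly factors, 1, Sdhaf2, did not overlap and was higher in the lines labelled WT (2.13%), and 0 were lower. Of the 12 nuclear regulators, 0 were without overlap in either direction. These shares are a description of the lists. Fastkd2, an RNA-binding protein of mitochondrial granules, differed by 0.64 ± 0.35, or 0.32 without WT 6, with 1690 in WT 6 and 557 to 921 elsewhere. In the list of subunit isoforms and paralogues, tissue and low-oxygen forms among them, 15 of 21 were tested and 0 passed. At an unadjusted p under 0.05 there was 1, Cox7a2l (6.67%, against 4.67% of all genes). The labels did not overlap for 1 gene that was higher in the lines labelled WT, Cox7a2l, and 1 that was lower, Cox6a1. Each is 6.67% of the list, against 6.49% and 5.6% of all genes.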

How the data were processed

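The deposited tables give, for each of 6 libraries, 1 normalized value per gene, a signal that the authors made by dividing whole reads by a size factor: dividing by the smallest step returned whole reads (within 0.01) for 100% of values in every library, and the factors matched the median-of-ratios method. The submitters' processing notes name STAR 2.7.9a, the mm10 build, Trim Galore 0.6.6, DESeq2 and FastQC without their roles; the counter and annotation are not given in the sources used here. The main test was limma 3.58.1 with a trend, on log2(value + 1), over the 16137 genes that filterByExpr (edgeR, applied to the whole reads) retained, two-sided, with Benjamini-Hochberg adjustment at 0.05 and 95% intervals. edgeR 4.0.16 (quasi-likelihood), DESeq2 1.42.0 and limma-voom on recovered reads, other scalings, filters and pseudocounts, and leaving out each library were alternatives. The size factor of WT 2 is 0.993, so its values lie close to its reads. Positions and median protein-coding transcript lengths come from GENCODE M21 (GRCm38), in which 55141 of 55401 identifiers were found. Members and gene lists were chosen with earlier results of these data known. Genes named are all mitochondrial members, up to 4 nuclear members per complex and 3 per list with the lowest p, isoforms, untested members, and the highest and lowest per length; Ndufa4's paralogue, chromosome groups, Uqcr11 and Ndufa10 were chosen after their values were seen. The tests were checked on simulated data. R 4.3.3 and Python 3.11.15 were used.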

Additional observations from a re-analysis of the deposited data

How the results depend on the processing

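Over 16 alternatives, 0 respiratory chain members passed the adjusted test in any, and 36 of 43 named genes kept the sign of their difference in all, including Cox7a2l, Uqcrc2, Ndufab1 and mt-Nd6. The other 7 changed sign only when a library was left out. Their lowest and highest values were then -0.50 and 0.016 for Cox7a2, -0.54 and 0.0093 for mt-Atp6 and -0.37 and 0.18 for mt-Atp8, positive without WT 6. Without WT 6 or Rag1KO 1, mt-Nd2 (-0.32 and 0.30) and mt-Nd4l (-0.33 and 0.14) turned positive. Uqcrq (-0.056 and 0.43) turned negative without Rag1KO 1, and mt-Nd3 (-0.084 and 0.50) without WT 2 or WT 4. The cause was not tested. The number of genes called over all genes was 1 in the main test, 0 with edgeR, 65 with DESeq2, 0 with limma-voom, and 0 to 5 with 1 library left out, the 5 without WT 6. Leaving out a library moved the nuclear median between 0.03 and 0.15 and the mitochondrial median between -0.51 and -0.01, and the medians of nuclear complexes III, IV and V crossed 0 (lowest -0.06, -0.07 and -0.02). With exon-union lengths in place of transcript lengths, the highest genes per length became Ndufa2, Sdhd and Cox8a in complexes I, II and IV, and Uqcrq the lowest in III. Chromosome centring, exon-union length and the sign counts without WT 6 were chosen after seeing the data. No paired analysis was possible because the labels share no replicate number between groups.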
